A study of Mus musculus with 2 samples.

Results

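The TNF superfamily comprises cytokine ligands related to tumour necrosis factor and the receptors that bind them. The genes were taken by symbol from the deposited gene table, as every symbol that begins with Tnfsf or Tnfrsf and a digit, together with 14 family members that carry other names, such as Tnf, Fas and Eda. Of 44166 genes in the table, 46 were members: 18 ligands, 27 receptors and the antisense RNA Tnfsf13os, which shares only the symbol stem. Whole skin of C57BL/6 mice at 3 days of age was sequenced in 2 libraries, 1 per genotype: wildtype, labelled WT, and RNF31fl/fl-K14-cre, labelled KO, in which a Cre recombinase under the keratin 14 promoter acts on loxP-flanked alleles of Rnf31 in basal keratinocytes and their descendants. The strain, the age and the tissue are the same for both. The sources used here do not state how many animals each library holds, and no Cre-only or floxed-only control was analysed here.

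Ligands of the family are mostly membrane proteins that act as trimers, and their receptors fall into groups by what lies inside the cell. Receptors with a death domain, such as TNF receptor 1 and Fas, can assemble caspase-8 or kinase complexes, receptors that recruit TRAF proteins signal mainly to NF-kB, and decoy receptors bind ligand without signalling. The product of Rnf31, HOIP, makes the linear ubiquitin chains of a complex recruited to TNF receptor 1, and loss of that complex in mouse keratinocytes is known for skin inflammation driven by death receptors. In skin, the ectodysplasin branch of the family (Eda, Edar) directs the formation of hair follicles.

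With 1 library per genotype there was no replicate spread, and no test between genotypes was run here. Every difference below is thus a difference between these 2 libraries. The libraries had 19619928 (WT) and 20511407 (KO) reads, of which 92.56% and 93.59% aligned. Levels are FPKM, fragments scaled to transcript length and library size, which are comparable between genes because they are per length. Ratios are FPKM in the library labelled KO over WT, with an exact binomial 95% interval on fragments estimated from FPKM, which covers counting error only. Rnf31 (ENSMUSG00000047098) was not reduced under the label KO, at 3.95 FPKM in WT and 5.4 in KO (ratio 1.36, interval 1.18 to 1.59). A value per gene also counts exons outside the floxed part, whose position no source used here states. For that reason the libraries are named by their labels throughout. Skin markers were present in both: Krt14 stood at 816 and 12590.1 FPKM, Krt5 at 1054 and 3014, and Col1a1 at 1022 and 666.

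Of the 46 members, 24 had an FPKM of at least 1 in WT, KO or both (20 in WT and 21 in KO), and the other 22 stayed at or below 0.904 in both. The family was present mainly as receptors. Of 27 receptors, 19 reached that floor, against 4 of 18 ligands. The receptors summed to 226 FPKM in WT and 352 in KO, and the ligands to 11.6 and 13.2. Tnfrsf1a, Tnfrsf12a and Ltbr together made up 71.7% of the receptor sum in WT and 79.7% in KO. Of 23 textbook pairs of ligand and receptor, the receptor had the larger FPKM in 20 in WT and in 19 in KO. In 16 pairs the ligand was under an FPKM of 1 in both libraries. Some genes, such as Tnf and Ltbr, stand in more than 1 pair. In some pairs both genes were under an FPKM of 1, such as Tnfsf9 and Tnfrsf9 (0.446 and 0.526 in WT).

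**Figure D1:**
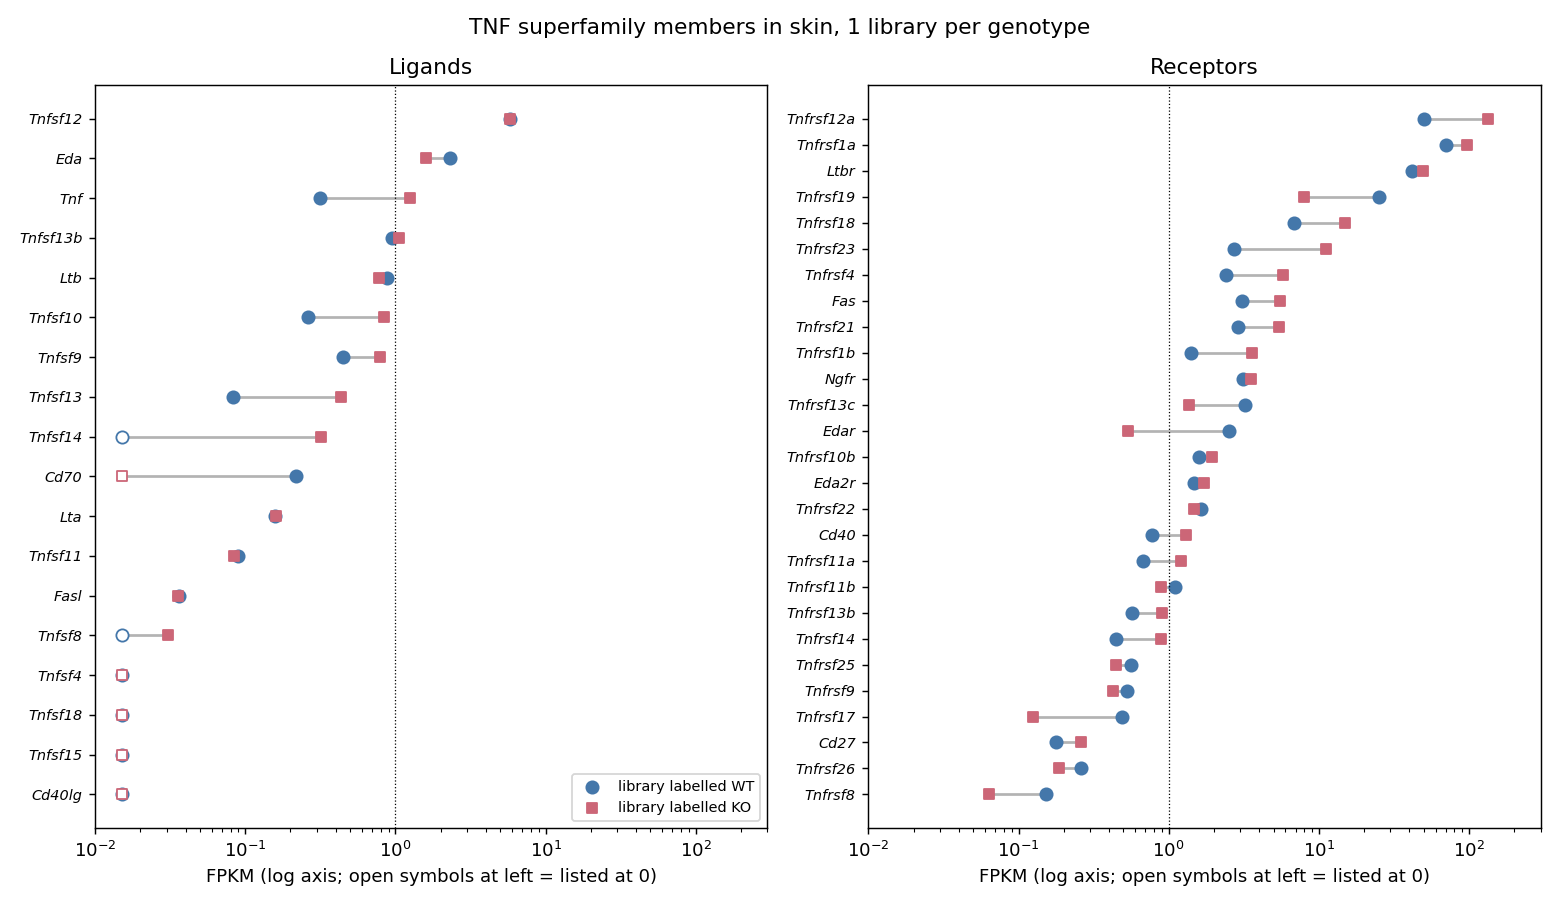
FPKM of each ligand (left) and receptor (right) in the library labelled WT (blue circles) and the library labelled KO (red squares), 1 library each, on a log axis, with open symbols at the left edge for genes listed at 0 and a dotted line at an FPKM of 1. Tnfrsf12a, Tnfrsf1a and Ltbr lie at the top right between 41.6 and 133 FPKM, and 14 of 18 ligands lie left of the line in both libraries.

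A gene was called higher or lower when the ratio of FPKM + 1 in KO to FPKM + 1 in WT, on the log2 scale, was at least 1 or at most -1. By this rule 3 members were higher, Tnfrsf23, Tnfrsf12a and Tnfrsf18, and 2 were lower, Tnfrsf19 and Edar. Among all 14541 genes above the floor the same rule called 7.59% higher and 4.09% lower, and counts of 3 and 2 among 24 are too few to set apart from that background. The median log2 ratio was 0.22 for the 24 members and -0.08 for all genes above the floor. The counting interval lay wholly above a ratio of 1 for 12 of the 24 members (30.0% of all genes) and wholly below it for 5 (41.7%). In the authors' deposited table, 29 members were compared, 0 were marked significant (0.616% of all genes compared there), and the lowest q-value among them was 0.365, for Tnfrsf19. In that table, 3 members, Tnfrsf19, Tnfrsf23 and Tnfrsf12a, had p under 0.05 (5.18% of all genes compared there). That comparison of the authors rests on the same 1 library per genotype, so it cannot measure the spread between animals. All 5 called members are receptors, as are 19 of the 24 members above the floor. With a pseudocount of 0.1 or 0.5 the calls also held the ligand Tnf and the antisense RNA Tnfsf13os. A change of pseudocount or floor cannot turn a direction. The changes of scaling shifted the median log2 ratio of all genes by 0.09, -0.11 and -0.13. That is too little to turn a log2 ratio of at least 1 in size, so the kept directions of the called members are no further support. Tnfrsf18 came inside the 2-fold rule under a pair of scalings, and Edar stands under a floor of 5.

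**Figure D2:**
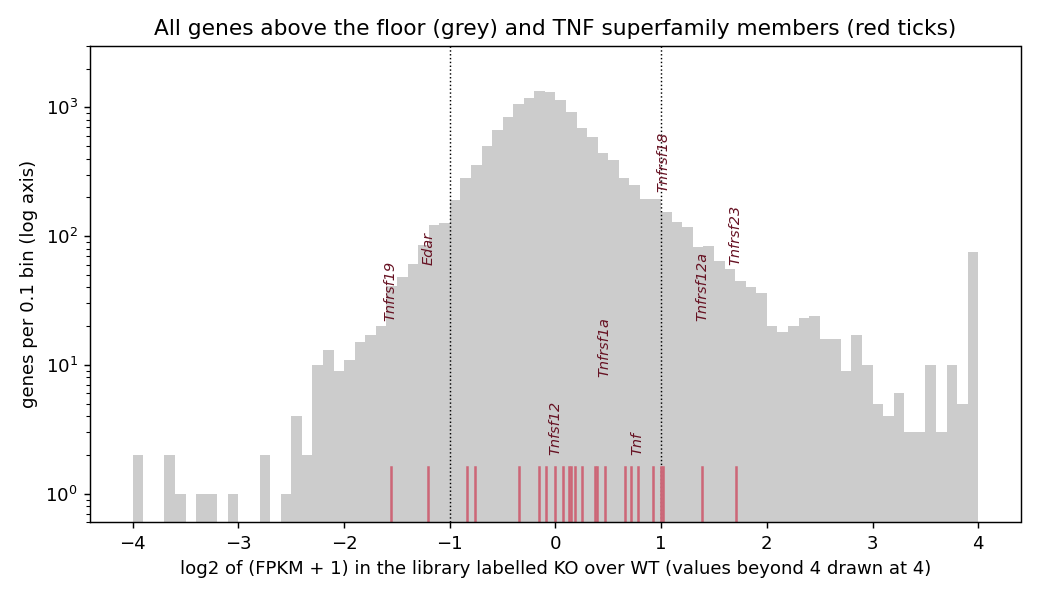
Histogram of log2 ratios (KO over WT, each FPKM + 1) for the 14541 genes above the floor (grey, log count axis), with a red tick for each of the 24 TNF superfamily members and dotted lines at the 2-fold rule. Members lie between -1.56 (Tnfrsf19) and 1.70 (Tnfrsf23), inside the range of all genes.

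The decoy receptor Tnfrsf23 had the largest log2 ratio of the 24 members above the floor. Its gene (ENSMUSG00000037613, chromosome 7, 143665809 to 143685872, minus strand, GRCm38) lies next to Tnfrsf22 (143634806 to 143649661), and both encode mouse decoy receptors for the death ligand TRAIL. Because the proportion of reads given to each copy depends on how alike they are, stretches of their coding exons are shown from the GENCODE M21 transcripts, 120 bases each, with capitals at the positions where the copies differ. The coding sequences are 597 and 531 bases long and 90.4% identical over 531 aligned bases, with a longest identical run of 102 bases. The most alike window, coding bases 384 to 503 of Tnfrsf22 and 354 to 473 of Tnfrsf23, holds 2 differences:
Tnfrsf22: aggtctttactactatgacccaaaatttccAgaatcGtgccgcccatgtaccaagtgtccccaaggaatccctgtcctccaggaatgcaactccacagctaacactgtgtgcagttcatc
Tnfrsf23: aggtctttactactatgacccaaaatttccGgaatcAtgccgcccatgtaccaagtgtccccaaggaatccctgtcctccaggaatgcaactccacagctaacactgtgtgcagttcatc
The least alike window, coding bases 77 to 196 of Tnfrsf22 and 47 to 166 of Tnfrsf23, holds 18:
Tnfrsf22: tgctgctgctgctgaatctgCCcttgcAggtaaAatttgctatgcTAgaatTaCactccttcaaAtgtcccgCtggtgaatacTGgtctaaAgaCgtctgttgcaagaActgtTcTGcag
Tnfrsf23: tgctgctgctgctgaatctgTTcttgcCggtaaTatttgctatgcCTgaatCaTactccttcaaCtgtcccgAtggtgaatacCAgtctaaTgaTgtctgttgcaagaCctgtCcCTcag
Over the longest annotated transcripts, untranslated parts included, 27.7% of the 50-base stretches of Tnfrsf22 and 23.3% of those of Tnfrsf23 also occur in a transcript of another gene, chiefly the other copy.

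Tnfrsf23 stood at 2.71 FPKM in WT and 11.1 in KO, about 141 and 598 estimated fragments, a ratio of 4.09 (3.39 to 4.94) and a log2 ratio of 1.70. Tnfrsf22 stood at 1.65 and 1.49 (ratio 0.9, 0.678 to 1.19). The intervals of the near copies do not overlap, but they cover counting error only, and the difference between the copies was not tested. The sources used here do not say how the authors split reads that match both copies, so each value is uncertain. The sum of both was 4.36 and 12.6 FPKM (ratio 2.88). The neighbour Tnfrsf26 was low, at 0.261 and 0.186. The antisense RNA E230032D23Rik shares 164 exon bases with Tnfrsf23 on the other strand and was listed at 0 in WT and at 1.09 in KO. No source used here states that counting used the strand, so reads of both cannot be told apart. The other decoy, Tnfrsf11b (osteoprotegerin, a soluble receptor for RANKL), was 1.1 and 0.886 (ratio 0.802, 0.514 to 1.25).

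Of 17 TRAF-binding and other receptors, 10 were above the floor, 2 were higher and 1 lower, against 7.59% and 4.09% of all genes. Among these receptors Tnfrsf12a was the most abundant member in the library labelled KO. Tnfrsf12a (ENSMUSG00000023905, chromosome 17, 23675445 to 23677468) encodes Fn14, the receptor for TWEAK, and is known as a growth factor-inducible gene of injured epithelium. It stood at 50.4 FPKM in WT and 133 in KO (ratio 2.64, 2.43 to 2.88), second of the members in WT and first in KO. Its ligand gene Tnfsf12 was 5.84 in each library (ratio 1, 0.78 to 1.28), so any difference was smaller than counting error, and its sign turned with the scaling. Tnfsf12 shares 48.3% of its exon bases with the readthrough gene Tnfsfm13 (2.33 and 2.01 FPKM), and its value is uncertain for that reason. Beside Tnfrsf12a, 5 of 7 basal keratinocyte markers were higher and 1 lower, against 7.59% and 4.09% of all genes. The summed levels of these markers were 2192 and 15954 FPKM, with none at 0. Krt14 (816 and 12590.1) carried most of that difference, and Krt15 was the lower marker (226 and 97.1). In whole tissue, more cells of a type and more RNA per cell cannot be told apart, and the part of these cells in the result was not tested. Ltbr, the lymphotoxin beta receptor, was 41.6 and 49.7 (ratio 1.2, 1.11 to 1.29).

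The neighbouring genes Tnfrsf4 and Tnfrsf18, which encode the T cell costimulatory receptors OX40 and GITR, were at similar ratios. They lie 9552 bases apart on chromosome 4 (156013843 to 156016612 and 156026164 to 156028895, plus strand). Tnfrsf18 was 6.88 FPKM in WT and 15.0 in KO (ratio 2.18, 1.75 to 2.69). Tnfrsf4 was 2.41 and 5.8 (ratio 2.4, 1.65 to 3.53), with a log2 ratio of 0.99 that fell just short of the rule, where that of Tnfrsf18 at 1.02 just passed. Their ligand genes Tnfsf4 and Tnfsf18 were listed at 0 in both libraries. The antisense gene Gm16008 covers 414 exon bases of Tnfrsf18 at 0.306 and 0.316 FPKM. Of 9 T cell markers, 2 reached the floor and both were higher, against 7.59% of all genes. The list sum was 20.0 and 80.4 FPKM. That sum was carried by the T cell receptor constant gene Trbc2 (17.3 and 76.5), while Cd3e stood at 0.0531 and 0.053, Cd3g at 0.681 and 0.207, and Cd8a was listed at 0 in both. The part of T cells in the ratios of Tnfrsf4 and Tnfrsf18 was not tested. Other costimulatory receptors of T cells were low, with Cd27, the receptor for Cd70, at 0.179 and 0.262, Tnfrsf9 at 0.526 and 0.428, Tnfrsf8 at 0.153 and 0.0632, and Tnfrsf14 (HVEM) at 0.445 and 0.89 FPKM.

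In the B cell branch, the interval of 1 receptor gene left out a ratio of 1. Tnfrsf13c (the BAFF receptor) was 3.23 in WT and 1.36 in KO (ratio 0.421, 0.285 to 0.604), with a log2 ratio of -0.84. Tnfrsf13b (TACI) was 0.566 and 0.904, and Tnfrsf17 (BCMA) was 0.487 and 0.125, both with intervals that include 1. The ligand gene Tnfsf13b (BAFF) was 0.953 and 1.06 (ratio 1.11, 0.799 to 1.56). B cell markers summed to 4.04 and 1.37 FPKM, with Ighm at 3.0 and 0.325, Pax5 listed at 0 in both, and Ms4a1 listed at 0 in WT. Their part in the ratio of Tnfrsf13c was not tested. Cd40, a receptor of antigen-presenting cells, was 0.769 and 1.3 (ratio 1.68, 1.08 to 2.57), and its ligand gene Cd40lg was listed at 0 in both. Dendritic and Langerhans cell markers summed to 66.3 and 79.6 FPKM, mostly from Epcam (63.9 and 70.8), with Flt3 listed at 0 in both. Of these 6 markers 1 was higher, Batf3 (1.32 and 7.56, ratio 5.75, 3.61 to 9.22), and 0 were lower, against 7.59% and 4.09% of all genes. The part of these cells in the ratio of Cd40 was not tested. Tnfrsf11a, which encodes the RANKL receptor RANK, was 0.677 and 1.21 (ratio 1.78, 1.26 to 2.54), with its ligand gene Tnfsf11 at 0.0895 and 0.0838.

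**Figure D3:**
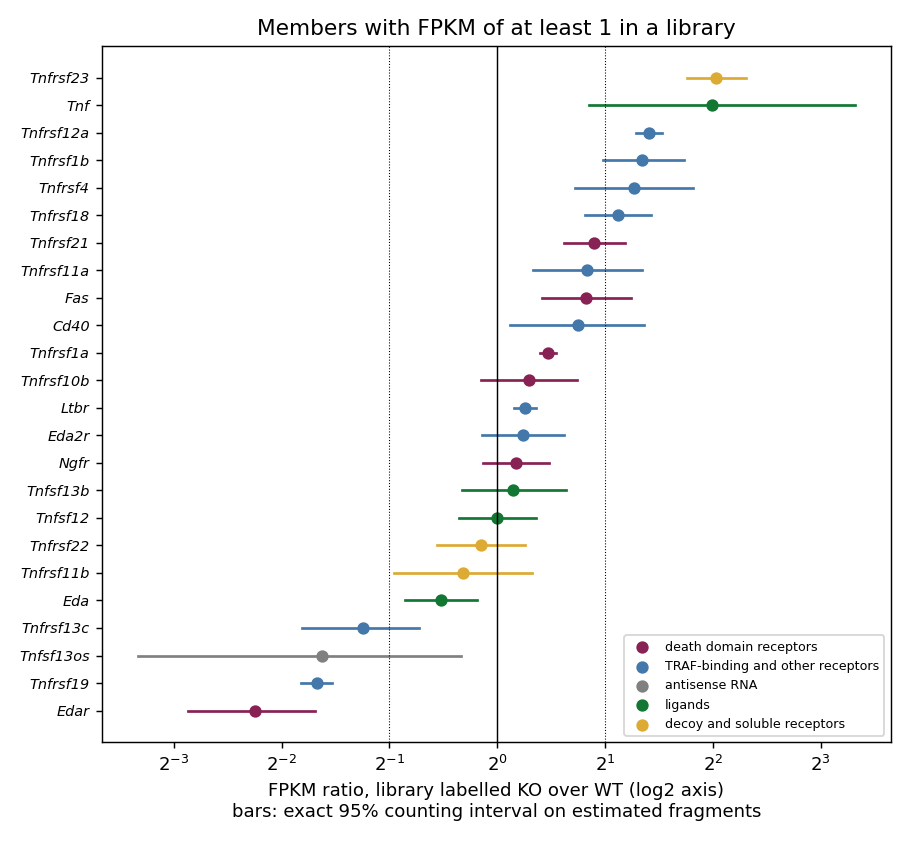
FPKM ratio of the library labelled KO over WT for the 24 members above the floor, on a log2 axis, with bars for the exact 95% counting interval, colour for the role of the member, a solid line at 1 and dotted lines at 0.5 and 2. The ratio runs from 0.211 (Edar) to 4.09 (Tnfrsf23), and the death domain receptors include both Edar at the bottom and Tnfrsf21 at 1.87.

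Of 7 death domain receptors, 6 were above the floor. Of these 6, 1 was lower past the 2-fold rule, Edar, and 0 were higher, against 4.09% and 7.59% of all genes. Edar (ENSMUSG00000003227, chromosome 10, 58600789 to 58675654) encodes the ectodysplasin receptor of the hair placode. It stood at 2.54 FPKM in WT and 0.536 in KO, about 143 and 31.3 estimated fragments (ratio 0.211, 0.137 to 0.309). Its ligand gene Eda was 2.3 and 1.6 (ratio 0.698, 0.552 to 0.877), and Edaradd, the adaptor that links the receptor to TRAF proteins, was 3.56 and 1.74 (ratio 0.49, 0.409 to 0.587). Of these 3 genes only Edar passed the 2-fold rule, and Eda and Edaradd were inside it at log2 ratios of -0.34 and -0.73. Eda2r, which encodes the receptor of the other ectodysplasin isoform, was 1.47 and 1.73 (ratio 1.18, 0.906 to 1.53). Tnfrsf19 (TROY; ENSMUSG00000060548, chromosome 14, 60963875 to 61046490), an Edar-related receptor without a death domain that is known from mouse hair follicles, was 25.3 and 7.92 (ratio 0.313, 0.283 to 0.347). Beside Edar and Tnfrsf19, 7 of 10 hair follicle markers were lower and 0 higher, against 4.09% and 7.59% of all genes. Lef1 was at 45.8 and 9.49 and Shh at 14.1 and 2.7, and none of these markers was at 0. The summed level of the list was 7057 and 5711 FPKM, since the inner root sheath keratins Krt71 (3208 and 3172) and Krt25 (2275 and 2186) dominate it and were nearly equal. The part of follicle content in the lower receptors was not tested.

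The other death domain receptors were at ratios between 0.798 and 1.87. Tnfrsf1a, the gene of TNF receptor 1, was the most abundant member in WT, at 70.2 FPKM, and stood at 97.2 in KO (ratio 1.39, 1.31 to 1.46). Tnfrsf21 (DR6) was 2.91 and 5.43 (ratio 1.87, 1.54 to 2.27), and Fas was 3.1 and 5.48 (ratio 1.77, 1.33 to 2.36). Tnfrsf10b, the mouse receptor that transmits the TRAIL death signal, was 1.59 and 1.94 (ratio 1.23, 0.899 to 1.67). Of its 50-base stretches 9.74% also occur in transcripts of other genes. The interval of Tnfrsf10b does not overlap that of the decoy Tnfrsf23 (3.39 to 4.94), whose value is uncertain because of shared reads. It overlaps that of the other TRAIL decoy, Tnfrsf22 (0.678 to 1.19). Such intervals cover counting error only, and lay wholly above 1 for 30.0% and wholly below it for 41.7% of all genes. The differences between these TRAIL receptor genes were not tested. The neurotrophin receptor gene Ngfr was 3.14 and 3.53 (ratio 1.12, 0.91 to 1.39), beside Schwann cell markers that summed to 60.3 and 76.6. Of these 5 markers 1 was higher, Mbp (9.65 and 22.6), and 2 were lower, Sox10 (15.3 and 6.43) and S100b (3.03 and 0.605). The shares of all genes were 7.59% and 4.09%. The part of Schwann cells in the ratio of Ngfr was not tested. Tnfrsf25 (DR3) was low at 0.558 and 0.445.

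Ligand genes were sparse. Tnf (ENSMUSG00000024401, chromosome 17, 35199381 to 35202007) was 0.316 FPKM in WT and 1.26 in KO, about 8.02 and 33.1 estimated fragments (ratio 3.98, 1.8 to 9.95), and only the pseudocount kept it inside the 2-fold rule. Its neighbours in the same cluster, 3061 and 1158 bases away, encode the lymphotoxins: Ltb was 0.874 and 0.781 (ratio 0.894, 0.451 to 1.84) and Lta 0.158 and 0.161 (ratio 1.02, 0.217 to 8.76). The differences between these neighbours were not tested. Tnfrsf1b, the gene of TNF receptor 2, which is found largely on leukocytes and endothelium, was 1.41 and 3.58 (ratio 2.54, 1.97 to 3.33). The TRAIL gene Tnfsf10 stayed under an FPKM of 1 but differed beyond counting error, at 0.26 and 0.841 (ratio 3.24, 1.96 to 5.69). Tnfsf13 (APRIL) was 0.0834 and 0.433, about 1.94 and 10.5 fragments, and overlaps both Tnfsfm13 and Tnfsf13os (1.52 and 0.493), so its value is uncertain. Tnfsf14 (LIGHT) was listed at 0 in WT and at 0.317 in KO, and Fasl was 0.0363 and 0.0356, about 1.09 and 1.11 fragments. Tnfsf9, the ligand of Tnfrsf9, was 0.446 and 0.789, with an interval that includes 1. Cd70 was 0.217 in WT and listed at 0 in KO, and Tnfsf8, the ligand of Tnfrsf8, was listed at 0 and at 0.0306. Tnfsf15, like Tnfsf4, Tnfsf18 and Cd40lg, was listed at 0 in both. At this depth a count of 0 allows up to 3 fragments, or 0.0969 FPKM in WT and 0.0933 in KO for a transcript of 2 kb.

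Of 8 macrophage and monocyte markers, 6 were higher and 0 lower beside Tnf and Tnfrsf1b, against 7.59% and 4.09% of all genes. The summed levels of these markers were 166 and 420.05 FPKM, with none at 0. Neutrophil markers summed to 0.27 and 33.8 FPKM, with 4 of 6 listed at 0 in WT and Ly6g listed at 0 in both. Retnlg (0 and 26.2) and Ngp (0 and 6.37) carried most of the sum in KO. Mpo went the other way at 0.207 and 0.067, with an interval that includes 1. Endothelial markers summed to 55.4 and 61.3. The part of these cells in the ratios of Tnf and Tnfrsf1b was not tested.

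**Figure D4:**
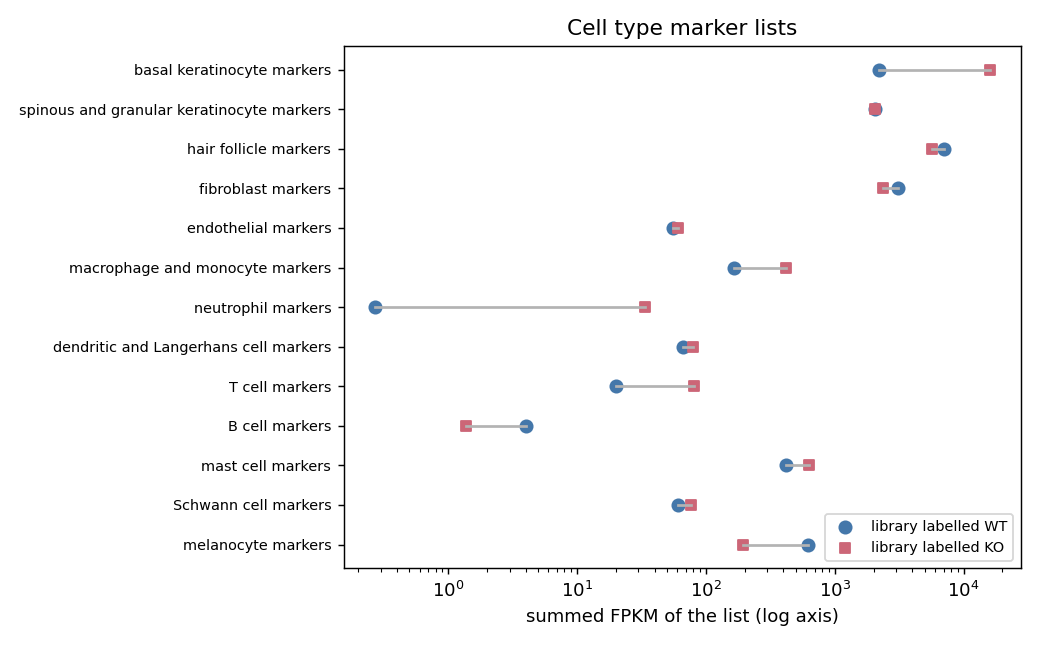
Summed FPKM of each cell type marker list in the library labelled WT (blue circles) and KO (red squares), 1 library each, on a log axis. Neutrophil (0.27 and 33.8), T cell (20.0 and 80.4), macrophage (166 and 420.05) and basal keratinocyte lists (2192 and 15954) lie further right in KO. Retnlg (26.2), Trbc2 (76.5) and Krt14 (12590.1) carry most of the neutrophil, T cell and basal keratinocyte sums in KO. Melanocyte (616 and 193) and B cell lists (4.04 and 1.37, most of the difference from Ighm at 3.0 and 0.325) lie further left.

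The sequences just upstream of Tnf and Tnfrsf1b, a ligand and a receptor with ratios above 2, are shown from RefSeq (GRCm38.p6). Other members also had ratios above 2, such as Tnfsf10 and Tnfrsf12a. Each sequence is the 250 bases up to the transcription start on the minus strand, with motif matches in capitals. Motifs were searched on both strands in the windows of 35 member genes that the table held, and in all 32851 windows of the same length.
Tnf, chr17:35202008-35202257: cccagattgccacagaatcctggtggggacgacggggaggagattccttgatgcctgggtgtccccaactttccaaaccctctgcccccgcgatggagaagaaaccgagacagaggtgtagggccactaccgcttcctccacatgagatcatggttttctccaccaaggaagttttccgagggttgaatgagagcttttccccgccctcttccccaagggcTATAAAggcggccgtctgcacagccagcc
Tnfrsf1b, chr4:145246871-145247120: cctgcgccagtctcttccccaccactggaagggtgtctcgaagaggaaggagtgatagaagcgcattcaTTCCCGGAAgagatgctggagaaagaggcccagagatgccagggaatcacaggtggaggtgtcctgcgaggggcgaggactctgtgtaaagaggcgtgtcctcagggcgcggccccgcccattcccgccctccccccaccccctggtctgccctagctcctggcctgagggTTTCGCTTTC
The capitals in Tnf mark TATAAA, 29 to 24 bases before the start, a motif present in 12.4% of all windows. Those in Tnfrsf1b mark the STAT motif TTCNNNGAA (181 to 173 bases before the start, in 7.02% of all windows) and the interferon-stimulated response element, read here on the other strand (10 to 1 bases before the start, in 2.98%). Of the 39 windows of member genes, 7 held TATAAA, 8 the STAT motif and 4 the interferon-stimulated response element. The 10-base NF-kB consensus occurred in 3 of these 39, from Ltb, Tnfrsf8 and Tnfrsf9, and in 3.9% of all windows. These 3 genes stayed under the floor. The AP-1 motif TGANTCA occurred in 6 of the 39 member windows, among them that of Fas, and in 6.75% of all windows. These matches describe letters in the windows only.

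Signalling genes downstream of the receptors were described as 2 lists. Of 29 receptor-proximal adaptors and regulators, 1 was higher and 0 lower, against 7.59% and 4.09% of all genes, and their median log2 ratio was 0.07, which turned to -0.02 when scaling ignored the 50 most abundant genes and to -0.03 in TPM. That 1 is Map3k14, which encodes NIK, the kinase of the alternative NF-kB pathway used by Tnfrsf12a and Ltbr, at 1.26 and 5.33 FPKM (ratio 4.24, 3.32 to 5.43). The adaptors Tradd (11.8 and 11.0, ratio 0.937, 0.795 to 1.1) and Traf2 (11.6 and 11.0, ratio 0.945, 0.852 to 1.05) had intervals that include 1. Fadd was 4.49 and 3.18 (ratio 0.709, 0.587 to 0.853), Traf1 was 4.89 and 3.24 (ratio 0.663, 0.545 to 0.805), and the kinase gene Ripk1 was 5.3 and 8.09 (ratio 1.53, 1.37 to 1.71). Rbck1 and Sharpin, the partners of Rnf31, had ratios of 0.936 and 1.1. Of 10 NF-kB subunits and inhibitors, 9 were above the floor, 3 were higher and 0 lower, against 7.59% and 4.09% of all genes. The list's median log2 ratio was 0.63, and 0.72, 0.51 and 0.51 under the other scalings. For all genes above the floor the median was -0.08. The 3 were Nfkbia (36.4 and 90.2 FPKM), Nfkbiz (1.73 and 8.99) and Bcl3 (2.97 and 14.8). The inhibitor genes Nfkbib (29.5 and 32.02, ratio 1.08, 0.992 to 1.19) and Nfkbie (0.604 and 0.836) had intervals that include 1, and the subunit gene Relb was 5.49 and 11.9 with a log2 ratio of 0.99.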

How the data were processed

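Skin RNA was prepared with TRIzol, and a directional kit gave the libraries, per the labels' protocols. The submitters' processing notes name cutadapt 1.9.1, HISAT2 2.0.4, Cufflinks 2.2.1 and GRCm38. Not given in the sources used here: annotation release, use of strand, handling of shared reads. The deposited table holds 1 FPKM per gene and library, with p-values and q-values of the authors' own comparison, in the column set of Cuffdiff, per the file headers. A deposited sheet gives the count of reads and the fraction aligned per library.

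From these values the log2 ratio was computed with a pseudocount of 1, which understates the difference of low genes, for genes whose larger FPKM was 1 or more. A size of at least 1 was called. With 1 library per genotype no p-value was computed. Fragments were estimated from FPKM, the longest GENCODE M21 transcript and the FPKM that 1 fragment is worth, since low FPKM of single-transcript genes of at least 3000 bases lay within 0.25 of whole multiples for 84.5% (WT) and 80.2% (KO) of 341 and 339 values, where 50% would by chance. An FPKM of 1 over 2 kb was thus about 31.0 fragments in WT and 32.2 in KO. Clopper-Pearson intervals on these estimates cover counting error at most, since PCR copies were not told apart by molecular identifiers. The steps were tested on simulated Poisson counts that used the same longest-transcript lengths. That simulation could not show the error from a wrong length in genes with several transcripts. Python 3.11.15, numpy 2.4.6, pandas 2.3.3 and scipy 1.17.1 were used.

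Groups come from the genotype labels. The members, lists and tests were chosen with earlier results of these data known. All members were accounted for. Those above the floor, those under it whose ratio was at least 2 or at most 0.5 with an interval that leaves out 1, and Tnf, Lta and Fasl were named by rule, as were pathway genes past the 2-fold rule and Rnf31, Rbck1, Sharpin, Tradd, Fadd, Ripk1, Traf1, Traf2 and Edaradd. Other members under the floor, Relb, Nfkbib, Nfkbie, E230032D23Rik, Gm16008 and Tnfsfm13 were named after their values were seen. Alternatives were other pseudocounts, floors, scalings and a 1.5-fold rule.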

Additional observations from a re-analysis of the deposited data

How the results depend on the processing

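With a pseudocount of 0.1 or 0.5, 6 members were higher and 4 lower, because Tnf, Tnfrsf1b and Tnfrsf4 joined the higher and Tnfrsf13c and Tnfsf13os the lower members. The 1.5-fold rule gave 8 and 4. Scaling by the median of ratios gave 5 higher, with Tnfrsf1b and Tnfrsf4 added. A floor of 5 left 10 members, of which 1 was lower, since Edar is below that floor, with a median log2 ratio of 0.69. The median was 0.11 without a floor (42 members) and 0.11 when scaling ignored the 50 most abundant genes. In that last setting and in TPM 2 members were higher, with Tnfrsf18 at log2 ratios of 0.90 and 0.92, and in TPM 3 were lower, Tnfrsf13c among them. These scalings shifted the median of all genes by -0.11 and -0.13, and of all called genes 54.4% and 51.2% were higher, against 65.0% as deposited and 71.2% with the median of ratios. The remaining values of these counts and medians stayed within 1.5 times of the reported count or 0.1 of the reported median. Among the 24 members above the floor, the sign turned under a scaling for 1, Tnfsf12. Of 242 values of single genes under alternatives, 226 moved by less than 0.5 of the log2 width of their counting interval, and 16 by more. The 226 include all values under another floor, which could not move because a floor does not enter a ratio. None of the called ones changed sign, which a pseudocount or a floor could not have caused. No paired analysis was possible because each genotype has 1 library, and for the same reason no library could be left out. Depth limits the ligands most.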

Other observations

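Genes that carry TNF in their names without belonging to the family were listed by symbol after the data were seen. The C1q/TNF-related genes encode secreted proteins whose globular domain has the fold of the TNF ligands. All 8 in the table were above the floor, and their median log2 ratio was -0.48. By the 2-fold rule 0 were higher and 1 was lower, against 7.59% and 4.09% of all genes above the floor. The lower gene was C1qtnf9 (5.73 FPKM in WT and 2.24 in KO, ratio 0.39, 0.288 to 0.516), and C1qtnf6, the most abundant, was 46.2 and 24.7 (ratio 0.534, 0.493 to 0.578). C1qtnf1 was the member with a ratio above 1 (8.84 and 13.3, ratio 1.51, 1.32 to 1.73).

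Genes with Tnfaip symbols were the other set, which includes Tnfaip8 and the Tnfaip8-like genes Tnfaip8l1, Tnfaip8l2 and Tnfaip8l3. Of these 8 genes, 7 were above the floor, with 1 higher and 0 lower, against 7.59% and 4.09% of all genes above the floor. Tnfaip2 was 1.13 FPKM in WT and 8.36 in KO (ratio 7.4, 5.74 to 9.68). Tnfaip6, which encodes the hyaluronan-binding protein TSG-6, was 3.31 and 7.61 (ratio 2.3, 1.77 to 2.97) and fell just short of the rule. Tnfaip3 (A20), an NF-kB inhibitor, was 2.68 and 2.26 (ratio 0.844, 0.702 to 1.01).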
